A study of Mus musculus with 9 samples.

Results

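The genes described here are 9 genes used to identify group 2 and group 3 innate lymphoid cells (ILC2 and ILC3): Gata3, Rora, Il1rl1, Il17rb, Klrg1, Cd200r1, Ltb, Areg and Arg1. They were chosen by symbol, and all 9 were found among the 55339 gene names of 9 bulk RNA-seq libraries of mouse labial mucosa. Rora, a nuclear receptor, and Ltb, a lymphotoxin chain, were lower in the strain labelled Tac111 than in either other strain. Klrg1, an inhibitory lectin receptor, had no count in Tac111, but only 2 in Tac146 and 17 in B6, and was too low for the main test. The other 6 genes kept 65.5 to 126% of their B6 level in Tac111, and none of them passed the test in any comparison.

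Innate lymphoid cells are tissue-resident lymphocytes that act without a rearranged antigen receptor. ILC2s depend on GATA3 and the nuclear receptor RORα, sense interleukin 33 through the receptor encoded by Il1rl1 and interleukin 25 through that encoded by Il17rb, and release type 2 cytokines and the growth factor amphiregulin (Areg). ILC3s respond to interleukin 23 and interleukin 1, and make interleukins 17 and 22, and those of the lymphoid tissue inducer type carry lymphotoxin. Few of these genes belong to ILCs alone. Keratinocytes express Gata3, Rora, Areg and Arg1, mast cells express Il1rl1, myeloid cells express Cd200r1, and T and natural killer (NK) cells express Ltb and Klrg1.

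The libraries came from 3 strains with 3 libraries each: B6 (replicates 1, 2 and 3), Tac111 (replicates 1, 2 and 3) and Tac146 (replicates 2, 3 and 4). All mice had been infected before the biopsy was taken. The sources used here do not name the agent, its dose and time, the age of the mice or the alleles that the strains carry. No label states that each library is a separate animal, so a p-value sets a difference only against the spread of these libraries, which could be technical. The labels name the cells as ILC1 in B6 and as T cells in Tac111 and Tac146, so that strain and labelled cell type cannot be told apart in the comparisons with B6.

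Total expected counts (read counts per gene as estimated by RSEM, which need not be whole) ran from 27192359 to 46456500 per library. As a check of the strain labels, Il2rg, the common gamma chain of several interleukin receptors, had 145 to 216 counts in the B6 libraries, 3 to 4 in Tac111 and 131 to 242 in Tac146. Rag1 had 59 to 75 counts in Tac146 and 3 or fewer in the other libraries, and Rag2 had 47 to 75 in Tac111 and 0 in the other libraries. Transcripts of epithelium and muscle made up far more of each library than those of lymphocytes. The differentiated keratinocyte markers summed to 69228 CPM or more, whereas 18 lymphocyte genes used here as a reference summed to 26.4 to 36.3 CPM in the B6 libraries and 24.9 to 31.4 in Tac146, but 2.76 to 3.63 in Tac111. The T cell receptor chains Cd3e and Cd3g had 0 counts in all Tac111 libraries, which are labelled T cells. CPM are counts divided by library size, with TMM scaling factors, and set to a common total. One library stood apart: Tac146 replicate 4 had the lowest summed mast cell markers (73.8 CPM, against 162 to 213 in the other 8) and the lowest skeletal muscle markers (21039 CPM, against 30970 to 39765).

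Of the 9 genes, 8 passed the expression filter of the fit, and Klrg1 did not. In Tac111 against B6, 2 of the 8 were called lower and 0 higher at an adjusted p under 0.05 (edgeR quasi-likelihood test, Benjamini-Hochberg adjustment over 16520 genes), where 2.79% of all tested genes were called lower and 3.8% in either direction. Tac111 against Tac146 called the same 2 genes, Rora and Ltb, where 6.27% of all genes were called lower and 8.89% in either direction. In Tac146 against B6, 0 of the 8 were called, DESeq2 and limma-voom also called 0, and 0 had an unadjusted p under 0.05, where 0.303% of all genes were called. The median log2 fold change of the 8 genes was -0.36 in Tac111 against B6, -0.22 in Tac111 against Tac146 and -0.01 in Tac146 against B6, and that of all tested genes was 0.02, 0.02 and 0.01. The comparisons share libraries, so the 2 calls in Tac111 against B6 and against Tac146 rest on the same 3 Tac111 libraries. Leaving out 1 library moved the number of all genes called in Tac111 against B6 from 627 to between 296 (without Tac111 replicate 2) and 958 (without Tac146 replicate 4), while Rora and Ltb were called in each of those fits.

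**Figure D1:**
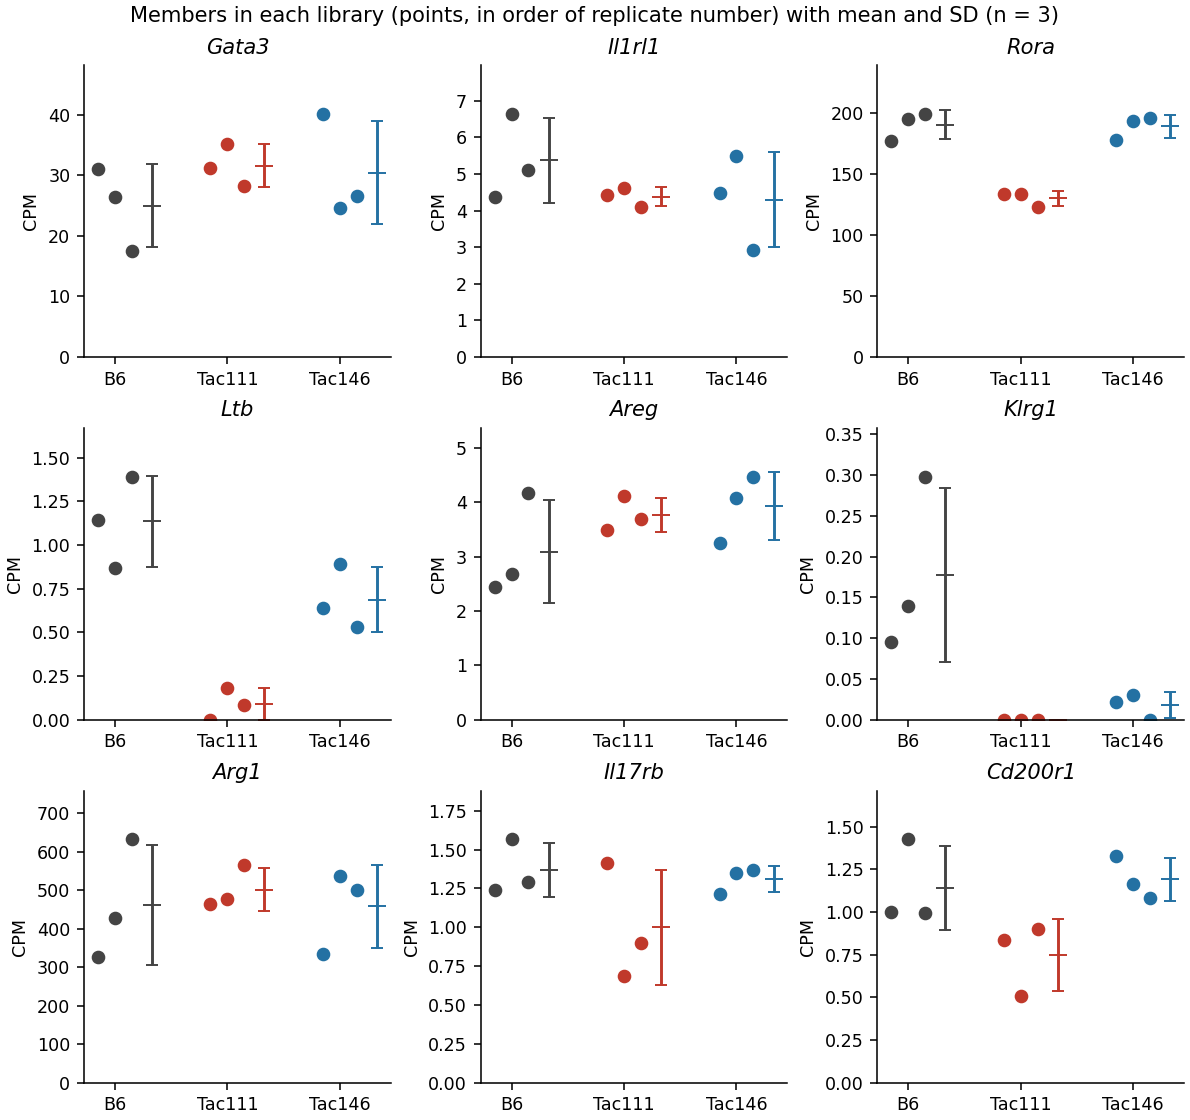
Level of each of the 9 genes in CPM (vertical axes, each from 0) in the 9 libraries, with points in order of replicate number and bars for the mean and SD of the 3 libraries of a strain. Rora and Ltb lie lower in all 3 Tac111 libraries than in any other library. Klrg1 is at 0 in all 3 Tac111 libraries and at 0.031 CPM or less in Tac146. The Gata3, Il1rl1, Areg and Arg1 points of the 3 strains overlap.

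Among the transcription factors, Rora was lower in Tac111, and it had the smallest relative SD of the 9 genes in each strain, leaving out Klrg1 in Tac111, where it was at 0. Rora encodes RORα, which ILC2 progenitors require and which also acts in the circadian clock and in epithelium. Its level was 177, 195 and 199 CPM in B6 replicates 1, 2 and 3, 134, 133 and 123 CPM in Tac111 replicates 1, 2 and 3, and 178, 193 and 196 CPM in Tac146 replicates 2, 3 and 4. All Tac111 libraries lay below all others, and the B6 and Tac146 libraries overlapped. Tac111 held 68.3% of the B6 level (95% interval of the fit 60.02 to 77.7%), a log2 fold change of -0.55 (SE 0.08, edgeR adjusted p = 0.00557). Against Tac146 the log2 fold change was -0.54 (SE 0.08, edgeR adjusted p = 0.00465). Both calls held in all 17 alternatives, with adjusted p from 2.15e-08 to 0.0301 and from 3.71e-08 to 0.0407. Tac146 held 99.3% of the B6 level of Rora, with an interval of 87.3 to 113% (edgeR adjusted p = 0.986).

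Rora lies at chr9:68653786-69388246 on the plus strand (GRCm38, GENCODE M21) and spans 13071 bases of exon. In CPM per kb of exon, a scale on which levels of different genes can be set side by side, its mean was 14.6 in B6 and 9.94 in Tac111, a difference of 4.62. In a bulk sample, fewer cells of a type and less RNA per cell cannot be told apart. Other marker lists also had lower sums in Tac111 than in B6. In that comparison 2.79% of all tested genes were called lower and 3.8% in either direction. The endothelial markers summed to 160 to 174 CPM in Tac111, below the 228 to 288 CPM of B6 and the 220 to 247 CPM of Tac146, with 5 of 12 called lower in Tac111 against B6 and none of the 12 at 0. The macrophage and dendritic cell markers summed to 232 to 286 CPM in Tac111, against 332 to 393 CPM in B6, while Tac146 spanned 212 to 426 CPM, with 3 of 16 tested called lower and none of the 17 at 0. The 8 Schwann cell and melanocyte markers summed to 243 to 290 CPM in Tac111, below the 377 to 473 CPM of B6 and the 315 to 423 CPM of Tac146, with 2 called lower and 1 higher in Tac111 against B6, a median log2 fold change of 0.54 and none at 0. The 9 wound keratinocyte markers summed to 5138 to 6254 CPM in Tac111, below the 6754 to 6974 CPM of B6, while Tac146 spanned 6149 to 9454 CPM, and the 8 basal keratinocyte markers overlapped between Tac111 (10028 to 10623 CPM) and B6 (10150 to 10600 CPM), with no gene of either list at 0. Of the wound and basal markers edgeR and limma-voom called 0, DESeq2 called 1 and 2 lower, and 2 and 4 had an unadjusted p under 0.05, with median log2 fold changes of -0.18 and -0.23. The part of these cells, and of lymphocytes, in the Rora difference was not tested. Of 13 tested clock genes, a list added after the values were seen, 0 were called in Tac111 against B6, where DESeq2 and limma-voom also called 0 and 2 had an unadjusted p under 0.05.

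The promoter of Rora is shown because Rora and Ltb, given further on, are the members that were lower in Tac111. Promoters are the bases from 250 before to 50 after the start in RefSeq (GRCm38.p6), which held 7 for 6 of the 9 genes, with no entry matched for Klrg1, Arg1 and Cd200r1. Capitals mark matches, on either strand, to 8 short motifs: GATA, the ROR core AGGTCA, the STAT-type TTCNNNGAA, the interferon-stimulated response element, the ETS core CCGGAA, the NF-κB consensus, the AP-1-type TGANTCA and the TATA box as TATAAA. In the windows shown no match overlaps another, and a match on the opposite strand appears as its reverse complement. Rora (chr9:68653536-68653835, plus strand) held 1 match, GATA, at position -37, where -1 is the base before the start, and 57.9% of all 32851 promoters of this length hold a GATA.
Rora: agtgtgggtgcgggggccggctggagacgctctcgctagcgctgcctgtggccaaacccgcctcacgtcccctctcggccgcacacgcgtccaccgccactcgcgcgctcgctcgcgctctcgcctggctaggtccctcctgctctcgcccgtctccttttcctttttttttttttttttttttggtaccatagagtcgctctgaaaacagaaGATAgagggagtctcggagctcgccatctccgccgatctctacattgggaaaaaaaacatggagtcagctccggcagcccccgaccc

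Gata3, the transcription factor that ILC2s and type 2 helper T cells require and that is also abundant in skin and hair follicle epithelium, had no lower mean in Tac111 than in B6. It stood at 31.0, 26.5 and 17.5 CPM in B6, 31.2, 35.2 and 28.2 CPM in Tac111, and 40.1, 24.5 and 26.5 CPM in Tac146, in order of replicate number. The strains overlapped, although 2 of the 3 Tac111 libraries were above all B6 libraries. Tac111 held 126% of the B6 mean (interval of the fit 89.5 to 177%), a log2 fold change of 0.33 (SE 0.22, edgeR adjusted p = 0.396), and Tac146 held 122% (interval 86.5 to 171%, adjusted p = 0.801). The gene lies at chr2:9857078-9890034 on the minus strand. Its antisense partner Gm13256 had 0 counts in all strains, and 9230102O04Rik, which shares exon sequence on the same strand, had 2 to 4 counts over the libraries of a strain.

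Il1rl1 encodes ST2, the receptor for interleukin 33 on ILC2s, type 2 helper T cells, regulatory T cells and mast cells. Its levels were 4.37, 6.64 and 5.10 CPM in B6, 4.42, 4.62 and 4.10 CPM in Tac111, and 4.49, 5.497 and 2.91 CPM in Tac146. The ranges of the 3 strains overlapped. The gene lies at chr1:40429570-40465415 on the plus strand. Tac111 held 81.6% of the B6 mean, with an interval of the fit of 57.4 to 117% (log2 fold change -0.29, SE 0.23, edgeR adjusted p = 0.474). In Tac146 the value was 80.0% (interval 56.3 to 113%, adjusted p = 0.784). The lowest library, Tac146 replicate 4, was the one with the lowest mast cell markers. That library also had the lowest fibroblast markers (1521 CPM) and the lowest macrophage and dendritic cell markers (212 CPM). Over the strains, the 14 mast cell and basophil markers summed to 178 to 212 CPM in Tac111, 162 to 213 CPM in B6 and 73.8 to 198 CPM in Tac146, and of the 14 only Mcpt8 was at 0 in B6 and Tac111. Of the 13 tested, 0 were called in Tac111 against B6, with 0 by DESeq2, 0 by limma-voom and 0 at an unadjusted p under 0.05. Of all tested genes, 3.8% were called in that comparison. The 12 fibroblast markers, none at 0, summed to 2426 to 3008 CPM in Tac111, 2418 to 3366 CPM in B6 and 1521 to 2780 CPM in Tac146. Of these 12, 0 were called in Tac111 against B6, with 0 by DESeq2, 0 by limma-voom and 1 at an unadjusted p under 0.05. The part of mast cells, fibroblasts and other cells in the Il1rl1 level was not tested.

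RefSeq gives Il1rl1 a pair of starts, and both are shown because they are known to serve different cells: the distal one hematopoietic cells such as mast cells and the proximal one fibroblasts. Gene-level counts do not separate them, so the values above are sums over both. The distal window (chr1:40429320-40429619, plus strand) held 6 GATA matches. The proximal window (chr1:40439379-40439678, plus strand) held 2 GATA matches and 1 AGGTCA, at position -185, a motif found in 16.3% of all promoters.
Il1rl1 start 1: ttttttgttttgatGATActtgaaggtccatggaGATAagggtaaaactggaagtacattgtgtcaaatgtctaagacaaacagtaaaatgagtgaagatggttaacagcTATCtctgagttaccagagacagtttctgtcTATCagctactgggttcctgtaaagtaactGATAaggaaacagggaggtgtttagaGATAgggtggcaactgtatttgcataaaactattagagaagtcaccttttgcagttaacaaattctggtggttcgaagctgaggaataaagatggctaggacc
Il1rl1 start 2: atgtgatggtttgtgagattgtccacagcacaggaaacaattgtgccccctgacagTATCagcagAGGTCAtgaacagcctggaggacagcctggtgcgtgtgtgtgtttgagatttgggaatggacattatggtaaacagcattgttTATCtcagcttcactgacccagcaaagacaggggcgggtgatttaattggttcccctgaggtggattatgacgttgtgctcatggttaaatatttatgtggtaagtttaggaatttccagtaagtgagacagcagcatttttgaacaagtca

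Il17rb, the subunit that binds interleukin 25, was low in every library. It stood at 1.24, 1.57 and 1.29 CPM in B6 (52, 45 and 39 counts), 1.41, 0.686 and 0.901 CPM in Tac111 (44, 19 and 31 counts), and 1.22, 1.35 and 1.37 CPM in Tac146 (55, 44 and 62 counts). In Tac111, 2 of the 3 libraries were below all others, but replicate 1 was within the B6 range. Tac111 held 73.1% of the B6 mean (edgeR adjusted p = 0.350, log2 fold change -0.44, SE 0.27). The exons of Il17rb (chr14:29996135-30008896, minus strand) overlap those of Actr8 on the opposite strand, which had 2073 to 2384 counts over the libraries of a strain. No source used here gives the strand setting of the counting, so reads of Il17rb and Actr8 cannot be told apart where the exons overlap.

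Cd200r1, an inhibitory receptor of ILC2s and myeloid cells whose ligand CD200 is made by epithelium and endothelium, was lower in every Tac111 library than in any library of the other strains. Its levels were 1.00, 1.43 and 0.994 CPM in B6, 0.833, 0.506 and 0.901 CPM in Tac111, and 1.33, 1.17 and 1.08 CPM in Tac146. The groups did not overlap, but the difference did not pass the test: the log2 fold change was -0.59 against B6 (SE 0.27, edgeR adjusted p = 0.241) and -0.66 against Tac146 (SE 0.27, adjusted p = 0.130). Over all alternatives the adjusted p ran from 0.227 to 0.548 and from 0.122 to 0.300. Tac111 held 65.5% of the B6 mean, from 71 counts against 113. The gene lies at chr16:44765736-44794978 on the plus strand. The family members Cd200r3 and Cd200r4, added after the values were seen, are close copies that can share reads with Cd200r1. In Tac111 against B6 and against Tac146, 0 of the 2 were called, with 0 by DESeq2, 0 by limma-voom and 0 at an unadjusted p under 0.05. Of all tested genes, 3.8 and 8.89% were called in these comparisons, so 2 genes are too few to set against that share. The macrophage and dendritic cell markers, whose sums are given above, were also lower in all Tac111 libraries than in all B6 libraries, and their part in the Cd200r1 values was not tested.

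Klrg1, an inhibitory receptor for cadherins that marks mature ILC2s and terminally differentiated T and NK cells, had the lowest level per kb of exon of the 9 genes. It lies at chr6:122270596-122282882 on the minus strand. B6 replicates 1, 2 and 3 had 4, 4 and 9 counts, the Tac111 libraries had 0, 0 and 0, and Tac146 replicates 2, 3 and 4 had 1, 1 and 0. No Tac111 or Tac146 library reached the lowest B6 library. A floor of 3 counts over Tac111, set in place of 0, would put Klrg1 5.24-fold lower there than in B6. The exact 95% counting interval of the Tac111 share was 0 to 26.2% of the B6 level, which also allows a smaller loss. Tac146 had 2 counts against 17 in B6, which is 9.92% of the B6 level with an exact 95% counting interval of 1.08 to 40.6%. Intervals and floors of this kind cover counting error only. Klrg1 was too low for the filter of the main test, and a fit with no filter gave an edgeR adjusted p of 0.0510 in Tac111 and 0.4999 in Tac146, each against B6.

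Ltb, which forms the membrane lymphotoxin complex with Lta and signals to stroma through Ltbr, had the largest relative loss among the tested members. The gene is short, with 1516 bases of exon at chr17:35194439-35196320 on the plus strand. It had 48, 25 and 42 counts in B6 replicates 1, 2 and 3 (1.15, 0.870 and 1.39 CPM). In Tac111 replicates 1, 2 and 3 it had 0, 5 and 3 counts (0, 0.181 and 0.0872 CPM). In Tac146 replicates 2, 3 and 4 it had 29, 29 and 24 counts (0.641, 0.891 and 0.529 CPM). Every Tac111 library lay below every other library, and of Tac146 only replicate 3 reached the B6 range. Tac111 held 7.86% of the B6 level, with a counting interval of 3.17 to 15.3%, and the log2 fold change was -3.67 (SE 0.56, edgeR adjusted p = 0.00559). That call held in all 16 alternatives that could test it, with adjusted p up to 0.0338. Against Tac146 the log2 fold change was -2.93 (SE 0.58, edgeR adjusted p = 0.0167), and 14 of 16 alternatives kept the call. It was lost without Tac111 replicate 3 (adjusted p = 0.0718) and without Tac146 replicate 3 (adjusted p = 0.0523). Tac111 replicate 2, with 5 of the 8 counts, set the size: without it the log2 fold changes were -4.54 against B6 and -3.80 against Tac146. Tac146 held 60.5% of the B6 level (edgeR adjusted p = 0.763, log2 fold change -0.74, SE 0.40).

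The lymphocyte reference is set beside Ltb as a description only. Its 18 genes were picked with earlier results of these data known, so that a likeness to them tests nothing. They kept a median of 7.83% of their B6 level in Tac111. Of the 18, 14 kept less than 20%, and 16 were called lower. Of 16858 genes with 20 or more counts in B6, 0.890% kept less than 20%. In Tac146 the reference genes kept a median of 74.4%. The Ltb promoter (chr17:35194257-35194556, plus strand) is shown for comparison with that of Rora. It held 1 STAT-type match at position -172, a motif in 8.3% of all promoters, and 1 NF-κB consensus match at position -87, in 4.51% of all promoters. The motifs matched in the windows of Rora and Ltb differ.
Ltb: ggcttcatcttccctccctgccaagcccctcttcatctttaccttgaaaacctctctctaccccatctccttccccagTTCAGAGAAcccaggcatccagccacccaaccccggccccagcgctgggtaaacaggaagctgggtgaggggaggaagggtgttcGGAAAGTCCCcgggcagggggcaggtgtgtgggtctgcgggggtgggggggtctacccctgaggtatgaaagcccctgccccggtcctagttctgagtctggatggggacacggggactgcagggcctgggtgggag

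Areg and Arg1, the secreted and metabolic effectors among the 9, overlapped between the strains and passed no test. Areg encodes amphiregulin, a ligand of the epidermal growth factor receptor made by ILC2s, regulatory T cells and keratinocytes, and lies at chr5:91139599-91148432 on the plus strand. It stood at 2.43, 2.68 and 4.17 CPM in B6, 3.49, 4.12 and 3.69 CPM in Tac111, and 3.25, 4.08 and 4.48 CPM in Tac146. All Tac111 values lay within the B6 range. Tac111 held 122% of the B6 mean (interval of the fit 87.4 to 171%, edgeR adjusted p = 0.450) and Tac146 held 127% (interval 91.8 to 178%, adjusted p = 0.782).

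Arg1, arginase 1, is carried by ILC2s and by macrophages activated by type 2 cytokines, and it is also made by differentiating keratinocytes. The gene lies at chr10:24915221-24927484 on the minus strand. Per kb of exon it was the most abundant of the 9 genes, with a mean of 208 CPM per kb in B6. Its levels were 327, 428 and 633 CPM in B6, 463, 477 and 566 CPM in Tac111, and 335, 538 and 502 CPM in Tac146. The B6 libraries alone spanned all values of the other strains. Tac111 held 109% of the B6 mean (interval of the fit 75.8 to 156%, edgeR adjusted p = 0.791) and Tac146 held 99.1% (interval 69.2 to 142%, adjusted p = 0.994).

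The levels of Arg1 and Gata3 varied among libraries of a strain, as did those of epithelial markers. The 14 differentiated keratinocyte markers summed to 69228, 84523 and 108440 CPM in B6, 69592, 78840 and 81979 CPM in Tac111 and 75210, 94474 and 101890 CPM in Tac146, in order of replicate number, and none of the 14 was at 0. Arg1 had the same order of libraries within B6 and within Tac111, and the lowest Tac146 library was the same for both. Gata3 had the reverse order of Arg1 within B6 and within Tac146. In Tac111, Gata3 was also lowest in the library with the most Arg1. Of the 14 markers, 0 were called in Tac111 against B6, where 3.8% of all tested genes were called. DESeq2 and limma-voom also called 0, and 1 had an unadjusted p under 0.05. The hair follicle and sebaceous gland markers, 14 genes with none at 0, summed to 2393 to 4317 CPM in Tac111, above the 1711 to 2116 CPM of B6, while Tac146 spanned 1014 to 3821 CPM. Their median log2 fold change in Tac111 against B6 was 0.81, edgeR and limma-voom called 0 of the 14, DESeq2 called 1 higher, and 7 had an unadjusted p under 0.05. The part of keratinocytes and hair follicles in the Arg1 and Gata3 levels was not tested.

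**Figure D2:**
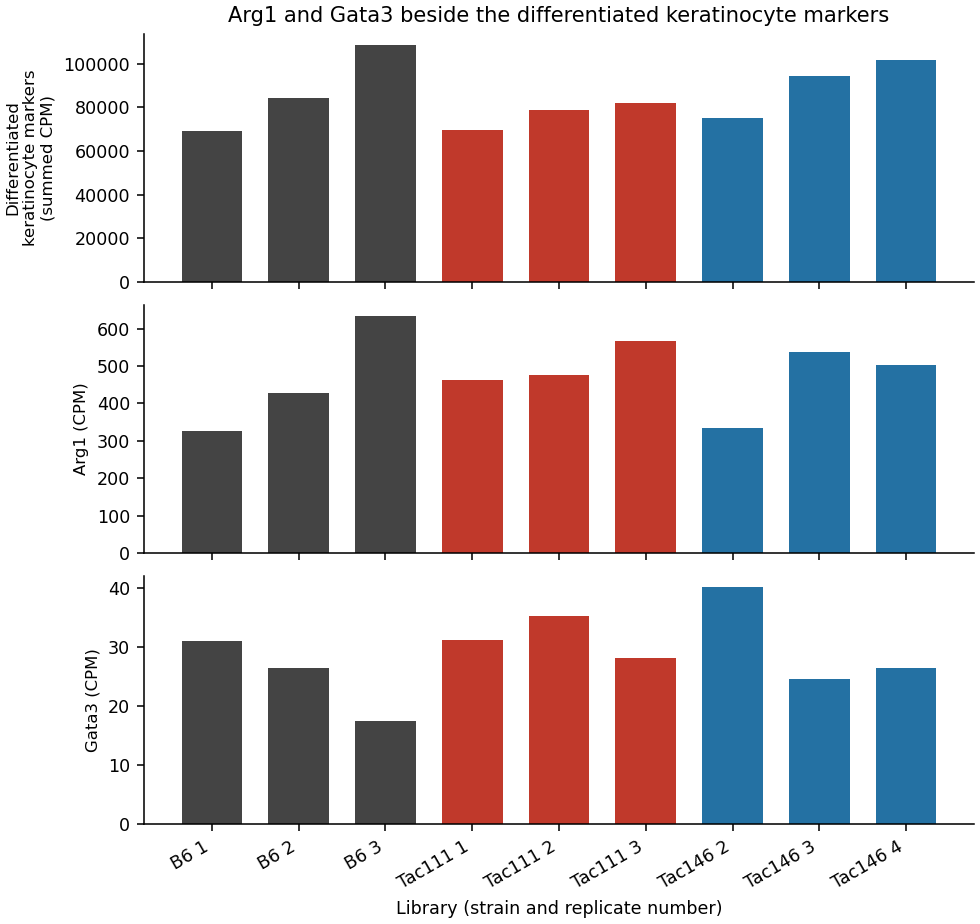
Bars from 0 give the summed level of the 14 differentiated keratinocyte markers (top), of Arg1 (middle) and of Gata3 (bottom), in CPM, in each of the 9 libraries, named by strain and replicate number. In B6 the library with the most marker counts also has the most Arg1 (633 CPM) and the least Gata3 (17.5 CPM).

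Per kb of exon, the order of the 9 genes in B6 was Arg1 (208 ± 70.0 CPM per kb, SD, n = 3), Rora (14.6 ± 0.908), Gata3 (6.28 ± 1.74), Areg (2.55 ± 0.775), Il1rl1 (0.779 ± 0.169), Ltb (0.749 ± 0.172), Il17rb (0.369 ± 0.0470), Cd200r1 (0.341 ± 0.0738) and Klrg1 (0.126 ± 0.0754). Il1rl1 and Ltb did not differ beyond their spread, nor did Il17rb and Cd200r1. The 3 genes with the highest level per kb, Arg1, Rora and Gata3, kept 109, 68.3 and 126% of it in Tac111. Members with a B6 level under 1 CPM per kb ranged from Klrg1 with no count left to Il1rl1 with 81.6% left. With the 8 members of 20 or more B6 counts, the median share left in Tac111 was 77.4%, beside 100.7% for all 16858 such genes. In Tac146 the 8 members kept a median of 99.2% of their B6 level, from 60.5% (Ltb) to 127% (Areg).

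**Figure D3:**
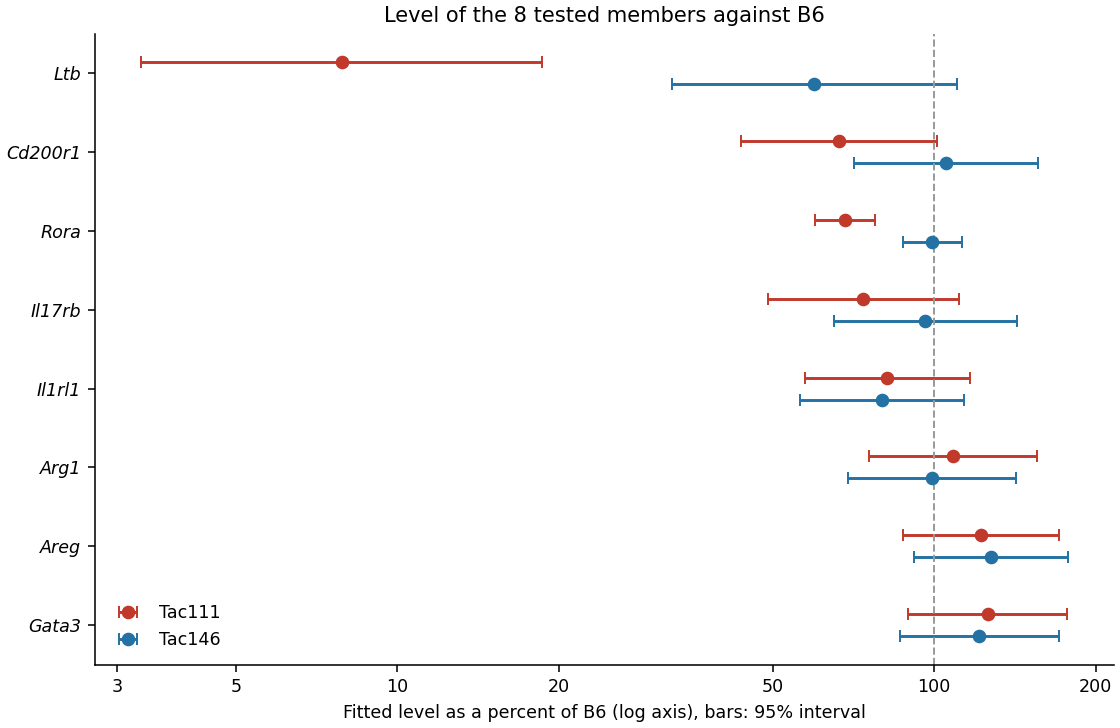
Fitted level of the 8 tested members in Tac111 and Tac146 as a percent of B6 on a log axis, with 95% intervals of the fit and a dashed line at 100%. In Tac111 the intervals of Ltb and Rora lie below 100%, and every other interval crosses it.

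**Figure D4:**
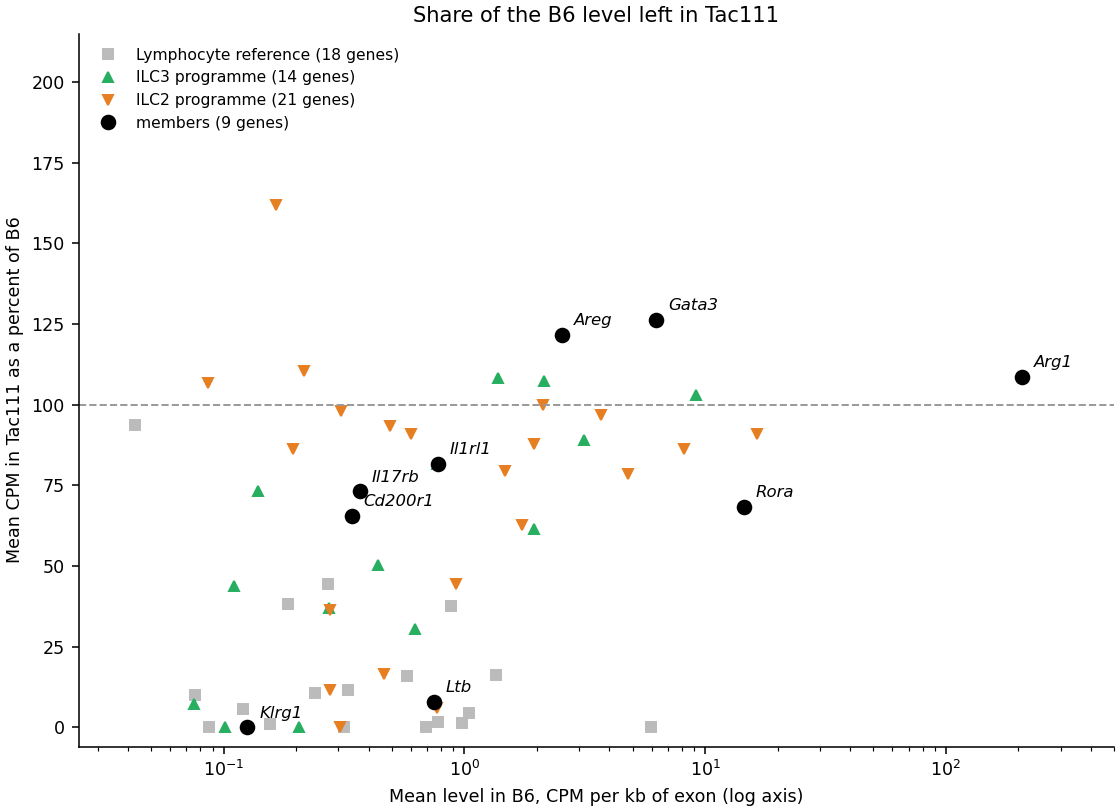
Mean level in Tac111 as a percent of B6 (vertical axis) against the B6 level in CPM per kb of exon (horizontal log axis) for the 9 members, and for those genes of the ILC2, ILC3 and lymphocyte reference lists that had 20 or more B6 counts. Lymphocyte reference genes, picked with earlier results of these data known, lie mostly under 20%. Ltb and Klrg1 also lie under 20%, and the other members lie between 65.5 and 126%.

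The wider ILC2 programme was likewise mixed. Of 27 genes fixed for this list, 20 were tested, and 7 were called lower and 0 higher in Tac111 against B6, beside the 2.79% of all genes called lower. The list's median log2 fold change was -0.20. Il7r, the interleukin 7 receptor chain that innate and adaptive lymphocytes need, fell from 2.16 ± 0.630 to 0.358 ± 0.0654 CPM (SD, n = 3, log2 fold change -2.61, edgeR adjusted p = 0.00112). The chemokine receptor Cxcr6 fell from 1.49 ± 0.486 to 0.0889 ± 0.0482 CPM (adjusted p = 0.00347). Ccr8, another chemokine receptor, had 36 counts in B6 and 0 in Tac111 (adjusted p = 0.00861). The other 4 called genes were Icos, Hpgds, Ets1 and Il2ra. The count was 5 without any 1 library of B6 or Tac111, and 6 without Tac146 replicate 2 or 3. Of the fits with 1 library left out, only that without Tac146 replicate 4 called Il2ra. Ets1 was not called without B6 replicate 2 or 3, nor without Tac111 replicate 1 or 3. Ccr8 was not called without B6 replicate 1, nor Hpgds without Tac111 replicate 2. The fit of the 6 libraries compared tested 19 genes of this list, and Ccr8 was not among the 6 called. Ptgdr2, Nmur1, Il13, Il9 and Csf2 also had 0 counts in Tac111, but they had 7 or fewer in B6.

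Other genes of the ILC2 list kept most of their level in Tac111, as examples chosen after their values were seen show. Thy1, a surface protein also made by fibroblasts, was at 49.1 ± 5.63 CPM in B6 and 44.7 ± 2.14 in Tac111, and the transcription factor Bcl11b at 39.0 ± 1.99 and 30.6 ± 5.88 (edgeR adjusted p = 0.529 and 0.204). The 21 genes with 20 or more B6 counts kept a median of 86.4%, from 0% (Ccr8) to 162% (Il5, with 26 counts in B6 and 39 in Tac111, adjusted p = 0.408), and 4 of the 21 kept less than 20%. Against Tac146, 6 of the 20 were called lower in Tac111 (3 without Tac111 replicate 3, and 4 without Tac111 replicate 1, Tac146 replicate 3 or Tac146 replicate 4). Of all tested genes, 6.27% were called lower in that comparison. In Tac146 against B6, 0 of the 20 were called, where 0.303% of all tested genes were called. DESeq2 and limma-voom also called 0, and 1 had an unadjusted p under 0.05.

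In the ILC3 programme, 11 of 20 genes were tested and 3 were called lower and 0 higher in Tac111 against B6, with a median log2 fold change of -0.44. Of all tested genes, 2.79% were called lower in that comparison. Gpr183, a receptor for oxysterols that guides lymphoid tissue inducer cells, fell from 1.80 ± 0.473 to 0.552 ± 0.105 CPM (log2 fold change -1.71, edgeR adjusted p = 0.00627). Ncr1, the activating receptor NKp46 that NK cells and part of the ILC3s carry, had 30 counts in B6 and 0 in Tac111 (adjusted p = 0.0144). Nrp1, also a receptor of endothelium, fell from 19.1 ± 3.31 to 11.7 ± 1.73 CPM (adjusted p = 0.0233). Without Tac146 replicate 4 the count was 5, with Cd4 and Il12rb1 added. Nrp1 was not called without B6 replicate 2 or 3, nor without Tac111 replicate 2 or 3. Ncr1 was not among the genes called in the fit of the 6 libraries compared, which tested 10 genes of this list rather than 11. Kit, also a mast cell gene and chosen after its values were seen, was at 12.3 ± 2.39 CPM in B6 and 13.4 ± 2.15 CPM in Tac111 (edgeR adjusted p = 0.679).

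The ILC3 cytokines were close to the limit of detection. Il22, Il17a and Il17f each had 3 or fewer counts over the B6 libraries and 0 in Tac111, so a difference was not detectable at this depth, and Tac146 had 14, 1 and 11. The chemokine receptor Ccr6, which marks lymphoid tissue inducer cells, had 25 counts in B6, 0 in Tac111 and 25 in Tac146. The 14 ILC3 genes with 20 or more B6 counts kept a median of 55.9% in Tac111, and 3 of them kept less than 20%. Against Tac146, 3 of 11 were called lower in Tac111, beside 6.27% of all tested genes. The count was 1 (Ncr1) without Tac111 replicate 2, Tac111 replicate 3 or Tac146 replicate 3, 2 without Tac146 replicate 4, and 5 without B6 replicate 3. In Tac146 against B6, 0 of 11 were called, beside 0.303% of all tested genes, with 1 by DESeq2, 0 by limma-voom and 3 at an unadjusted p under 0.05. The ILC1 and NK cell markers, of which Ncr1 is also one, summed to 1.01 to 1.57 CPM in Tac111, below the 7.26 to 9.43 CPM of B6 and the 7.14 to 8.99 CPM of Tac146, with 8 of the 14 at 0 in Tac111.

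Of the ligands, co-receptors and signalling partners of the 9 genes, 22 of 26 were tested, and 0 were called in Tac111 against B6, with a median log2 fold change of -0.18. Of all tested genes, 3.8% were called in that comparison. DESeq2 called 1 of the 22, limma-voom 0, and 5 had an unadjusted p under 0.05. Il33, the ligand of the Il1rl1 product and a nuclear alarmin of epithelium and stroma, was at 72.9 ± 14.8 CPM in B6 and 59.2 ± 4.99 in Tac111 (edgeR adjusted p = 0.263). Il25, the ligand for Il17rb, had 2 counts in B6, 6 in Tac111 and 1 in Tac146. Ltbr, the receptor for lymphotoxin, was at 36.6 ± 3.06 CPM in B6 and 39.2 ± 4.37 in Tac111 (adjusted p = 0.617), whereas Lta, the partner chain of Ltb, had 14 counts in B6, 2 in Tac111 and 18 in Tac146. These 4 genes were chosen after their values were seen. Of the 23 partners with 20 or more B6 counts, Tnfsf14 kept the least in Tac111, 10.6% of its B6 level, where the median was 87.5%. Tnfsf14 was not called against B6 in any fit.

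Against Tac146, 5 of the 22 partners were called lower in Tac111, and 0 higher, where 6.27% of all tested genes were called lower. The 3 with the smallest adjusted p were Myd88, the adaptor of interleukin 1 family receptors (27.1 ± 2.07 CPM in Tac111 and 38.0 ± 3.58 in Tac146, log2 fold change -0.49, edgeR adjusted p = 0.0160), Il1rap, the co-receptor of ST2 (16.0 ± 1.38 and 22.2 ± 1.18 CPM, log2 fold change -0.47, adjusted p = 0.0167), and Traf6, a ubiquitin ligase downstream of Myd88 (36.6 ± 2.31 and 50.3 ± 6.25 CPM, log2 fold change -0.46, adjusted p = 0.0326). The other called genes were Adam17, the protease that releases amphiregulin, and Egfr, its receptor. These calls changed when single libraries were left out. Without Tac146 replicate 3 none of the 5 was called, while Tnfsf14 was called lower. Tnfsf14 was not called in the main fit, which tested 22 partners. It was called lower with no filter, where 26 were tested. Leaving out any 1 library of B6 or Tac111, where 23 were tested, also called it lower. Without Tac111 replicate 2 only Il1rap of the 5 was called, without Tac111 replicate 3 only Myd88, and without B6 replicate 2, Tac111 replicate 1 or Tac146 replicate 4 only these 2 of the 5. In Tac146 against B6, 0 of the 22 were called, where 0.303% of all tested genes were called. DESeq2 and limma-voom also called 0, and 2 had an unadjusted p under 0.05.

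For each member with a mean of 1 CPM or more, the 3 genes whose log2(CPM + 1) followed it most closely over the 9 libraries were taken from 13291 candidates. The 9 libraries share strain, depth and tissue makeup, so the Pearson r values are descriptions. Rora was followed most closely by 9930111J21Rik2 (r = 0.990), Nlrc5 (0.989) and Nf2 (0.987). With the strain means removed these r were 0.905, 0.852 and 0.764. For Arg1 the genes were Paip2b (0.982), Ada (0.977) and Emp1 (0.945), and with the strain means removed r was 0.981 to 0.987. For Gata3 they were Cbx1 (0.952), Akr1b8 (0.945) and Fst (0.944), and for Areg they were Zdhhc13 (0.950), Slc3a2 (0.942) and Baiap2 (0.941).

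Among the receptors, Il1rl1 was followed by Bicc1 (0.958), Cep85l (0.958) and Cadm3 (0.956), Il17rb by Klhl36 (0.969), Pcdh12 (0.930) and Pskh1 (0.929), and Cd200r1 by Inpp5d (0.906), Cd33 (0.906) and Dusp7 (0.904). The genes that followed Rora were themselves lower in Tac111: the mean of Nlrc5 was 4.45 CPM in Tac111, against 18.8 CPM in B6 and 20.5 CPM in Tac146, and that of Nf2 was 63.3, against 102 and 101 CPM. Those that followed Arg1 had nearly equal strain means, as Paip2b did with 122, 124 and 121 CPM.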

How the data were processed

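Polyadenylated RNA of labial mucosa biopsies was sequenced in 9 libraries of 3 strains, with a stranded preparation per the labels' protocols. The files hold deposited expected counts per gene symbol, per the file headers. The submitters' processing notes list STAR, RSEM and GRCm38. No source used here gives their versions, the annotation or the strand setting.

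Of 55450 lines per file, repeated symbols (110) were summed, which gave 55339 names, and expected counts were rounded. Libraries of a strain differed by a chi-square of 14.6 to 86.4 per degree of freedom, beyond sampling noise. Each was used as a replicate, although this spread could be technical and does not show that they are separate animals. The test was edgeR's quasi-likelihood test (edgeR 4.0.16, R 4.3.3) over 9 libraries, with TMM factors, filterByExpr, a mean for each strain (6 residual degrees of freedom) and Benjamini-Hochberg adjustment over all tested genes at 0.05. It was checked on simulated data. The SE is the log2 fold change over the square root of F. Positions and exon lengths are from GENCODE M21, by symbol. Counting intervals are exact at 95%.

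The 9 genes and the lists were chosen with earlier results of these data known, and 2 lists (clock genes, Cd200r family) were added after the values were seen. The text names all 9 genes, Il2rg, Rag1 and Rag2, up to 3 called genes with the smallest adjusted p per list, list genes at 0, the 3 genes most like each member, and others where said. No p was adjusted over a list alone. Shares of the B6 level are ratios of mean CPM.

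Alternatives were other scaling (median-ratio, upper-quartile), DESeq2 1.42.0, limma-voom (limma 3.58.1), no filter, 1 CPM in at least 3 libraries as the filter, the replicate number as a block, fits of 6 libraries, each library left out and, for shares, unscaled sizes and medians. List counts without Tac146 replicate 4 were added after seeing the data. Python 3.11.15, pandas 2.3.3, scipy 1.17.1 and matplotlib 3.10.9 made tables and figures.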

Additional observations from a re-analysis of the deposited data

How the results depend on the processing

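No called member changed sign under any alternative. Of 405 alternative fits of single members, 22 had the other sign, all of members that were not called and whose log2 fold change was 0.13 or less in size. The 2 calls of Tac111 against B6 became 1 (Rora) with the filter of 1 CPM or more in 3 libraries, which left Ltb out of the test. The same held in Tac111 against Tac146, where leaving out 1 library gave 1 to 2 calls, with Ltb lost without Tac111 replicate 3 or Tac146 replicate 3. Without a filter, Klrg1 had log2 fold changes of -5.65, -3.15 and -2.50 in Tac111 against B6, Tac146 against B6 and Tac111 against Tac146.

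Counts over all genes moved more. In Tac111 against B6, 627 genes became 1213 with DESeq2, 1022 with no filter, and 296 to 958 with 1 library left out, moving by over 1.5 times without B6 replicate 2 (349) or 3 (320), Tac111 replicate 2 (296) or 3 (359), or Tac146 replicate 4 (958). In Tac146 against B6, 50 became 136 with DESeq2, 129 with no filter, 26 with only the 6 libraries compared, and 33 to 64 with 1 library left out (33 without B6 replicate 2 and without B6 replicate 3). In Tac111 against Tac146, 1469 became 2676 with DESeq2, 641 with only the 6 libraries compared, and 469 to 1829 with 1 library left out (793 without B6 replicate 2, 907, 483 and 469 without Tac111 replicates 1, 2 and 3, 498 and 877 without Tac146 replicates 3 and 4). Upper-quartile factors moved that comparison's split from 433 higher and 1036 lower to 606 and 822. The cause was not tested.

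Same-numbered libraries did not stand apart in how they deviated from their strain means. Their r was -0.09, 0.01 and 0.02 (B6 with Tac111), 0.05 and 0.08 (B6 with Tac146) and -0.07 and 0.21 (Tac111 with Tac146). Libraries of different number had r of -0.29 to 0.23. With 3 libraries per strain, such values cannot exclude a pairing or a batch. With the replicate block, 872, 44 and 632 genes were called in Tac111 against B6, Tac146 against B6 and Tac111 against Tac146, and Rora and Ltb were called as before. In Tac111 against Tac146, the block called 4 of the ILC2 programme, 2 of the ILC3 programme and 0 of the partners, beside 6, 3 and 5, and the fit of the 6 libraries compared called 3, 3 and 2. For shares of the B6 level, medians in place of means gave Areg 138% in Tac111 and 152% in Tac146, beside 122 and 127%, and Klrg1 15.9% in Tac146, beside 9.92%. Ltb, with 8 counts in Tac111, and Klrg1, with 17 in B6, are limited by depth.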
